A study of Mus musculus with 6 samples.

Results

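RNA-seq values of the Notch receptors, the canonical Notch ligands and one Fringe enzyme were compared between mouse small intestinal organoids treated with MMK-1 and vehicle-treated controls. The members were the 10 rows of the deposited expression table listed under the symbols Notch1, Notch2, Notch3, Notch4, Dll1, Dll3, Dll4, Jag1, Jag2 and Lfng, out of 21397 listed genes. All 10 were found, and 6 of them had a mean level of at least 1 FPKM, that is, fragments scaled to gene length and library total, and entered the test across genes. The members were chosen by name and not by their values, but with earlier results of these data known. Jag2, Notch3 and Dll3 are also among the genes that the study itself picked from these libraries.

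The organoids were grown from small intestinal crypts of Fpr2f/f mice on the C57BL/6J background. Both groups carry the floxed Fpr2 allele, and no Cre is stated for these cultures. One group, labelled MMK-1, received 1 μM MMK-1, a synthetic peptide agonist of the receptor FPR2, and the other, labelled Control, received its vehicle, 0.1% DMSO, each until day 5. For the treated samples, the treatment field of the labels states 1 mM and the protocol text 1 μM. Each group had 3 libraries, each pooling organoids derived from several mice, so p-values measure the spread between such pools. The age of the mice is not given in the labels.

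The libraries held 35512739 to 37537463 fragments. The 9 defining genes of epithelium were all above 1 FPKM. MMK-1 replicate 3 stood apart: over the genes tested, its median absolute log2 difference from the other libraries of its group was 0.102, against 0.0403 to 0.0676 in the other 5 libraries, and several results that rest on it are given without it as well. The groups differed widely, and limma-trend on log2(FPKM + 1) called 48.5% of all tested genes higher and 24.7% lower with MMK-1 (adjusted p up to 0.05). With libraries scaled to the upper quartile of every gene above 0, 3673 of the 10551 genes tested were higher and 3905 lower, instead of 5118 and 2606. Markers of several cell types moved together with the members. The summed level of 15 stem cell markers went from 116 to 118 FPKM in controls to 494 to 518 FPKM with MMK-1. That of the 12 Paneth cell markers listed went from 413 to 463 FPKM to 1320 to 1456 FPKM, and that of 19 enteroendocrine markers from 428 to 446 FPKM to 591 to 610 FPKM. The sum of 16 enterocyte markers went from 15978 to 16131 FPKM to 10740 to 11531 FPKM. Goblet cell markers moved both ways, with 7 of 12 tested higher and 3 lower (3 higher and 4 lower with the upper-quartile scaling), and 11 of 12 tuft cell markers were under 1 FPKM, with a sum of 6.16 to 6.88 FPKM in controls and 4.48 to 5.51 FPKM with MMK-1. Without Ltc4s, the highest of them, the other 11 tuft cell markers summed to 2.29 to 2.55 FPKM in controls and 2.61 to 3.21 FPKM with MMK-1. Leukocyte markers summed to 6.19 to 6.74 FPKM in controls and 2.46 to 3.30 FPKM with MMK-1, mostly from Cd68 and Itgam. Of the 9 listed, 7 had a mean under 1 FPKM, and the highest, Cd68, had means of 3.17 and 1.15 FPKM. Markers of glia and neurons summed to 6.01 to 6.13 and 3.31 to 3.41 FPKM. That sum was mostly Ret, and the other 7 markers summed to 0.433 to 0.628 and 0.421 to 0.608 FPKM. The part of these shifts in the results on the Notch genes was not tested, and in bulk RNA a change in the number of cells of a type and a change in RNA per cell cannot be told apart.

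Notch signaling passes between touching cells. A Delta-like or Jagged ligand on one cell binds a Notch receptor on its neighbor, the receptor is cut by ADAM proteases and then by γ-secretase, and the freed intracellular domain enters the nucleus, where it joins RBPJ and Mastermind proteins to switch on target genes such as Hes1. In intestinal crypts, Notch1 and Notch2 act in stem cells and progenitors, where signaling keeps them from secretory fates, while Dll1 and Dll4 are presented by Paneth cells and secretory progenitors. Lunatic fringe, the product of Lfng, adds a sugar to the receptor's extracellular repeats and is known to favor the response to Delta-like over Jagged ligands.

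All 10 members had a higher mean in the MMK-1 libraries, and the size of the difference varied widely among them. Jag2 and Lfng were about 3-fold higher, Notch1 and Notch2 less than 2-fold higher, and Jag1, Dll1 and Dll4, which carry most of the remaining ligand RNA, differed by 1.25-fold or less. Of the 6 tested members, 4 (Notch1, Jag1, Jag2 and Lfng) were higher in limma-trend (adjusted p up to 0.05), against a background of 48.5%. None of the 6 was lower: the count was 0 with limma-trend, also at an unadjusted p of at most 0.05, and 0 with limma-voom on fragments, against a background of 24.7% lower in limma-trend. The median log2 fold change was 0.45 over the 6 tested members and 0.13 over all genes tested. At the thresholds of the study (2-fold, with an unadjusted p up to 0.05), Jag2 and Lfng passed in limma-trend, 2 of 6 members against 3.39% of all genes. In limma-voom on fragments, Notch3 and Dll3, which were under the minimum level, passed these thresholds too. Both rest on few fragments, and Dll3 entered that fit through its MMK-1 libraries. The libraries of the 2 groups did not overlap for 5 of the 6 tested members, against 50.5% of genes tested that were higher without overlap.

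The plot of levels by library shows these differences member by member.

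**Figure D1:**
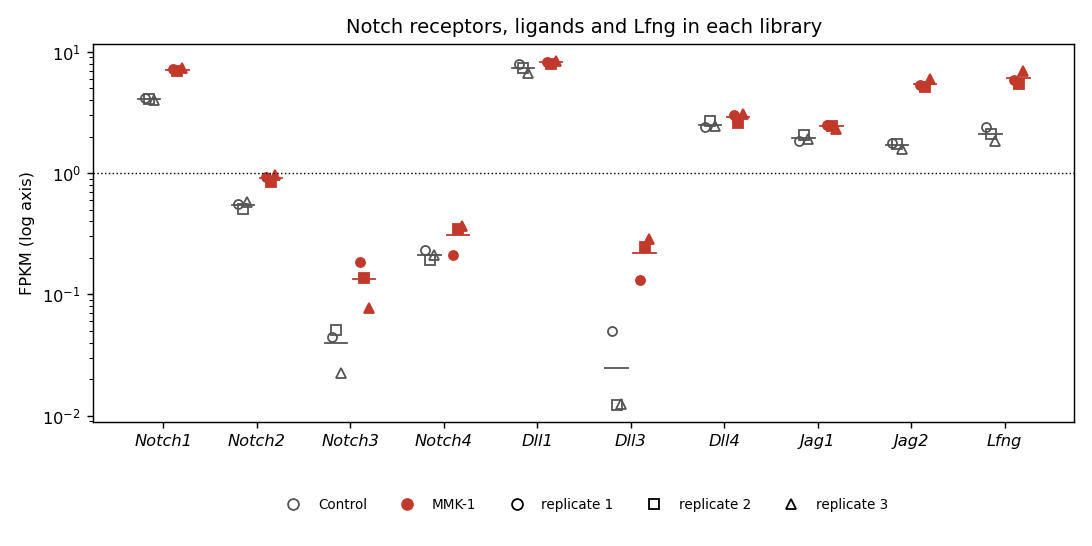
Level of each member in FPKM (vertical log axis) in the 3 Control libraries (open grey) and the 3 MMK-1 libraries (filled red). Symbols give the replicate number, short lines the group mean and the dotted line the minimum mean of 1 FPKM for the test. Jag2 and Lfng lie near 2 FPKM in controls and between 5.10 and 7.01 FPKM with MMK-1, while Dll1 stays between 6.67 and 8.39 FPKM.

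Promoter sequences are given for Lfng and Notch1, which along with Jag2 are the tested members with the largest differences. They are the RefSeq windows of 300 bases with 250 bases before the annotated start and 50 from it on, on GRCm38.p6, printed 5′ to 3′ on the strand of the gene. Capitals mark matches on either strand to the core of RBPJ sites (TGGGAA), the AP-1 site (TGANTCA), the core of TEAD sites (GGAATG), the core of TCF and LEF sites (CTTTGA) and the sites of HES and HEY repressors (CACGNG). The windows are chr5:140607091-140607390 on the plus strand for Lfng and chr2:26503773-26504072 on the minus strand for Notch1, whose GENCODE gene extends further upstream. The window of Jag2 in that table starts from a site 317 bases downstream of the RefSeq gene start and lies wholly inside the gene, so it is not shown.
Lfng: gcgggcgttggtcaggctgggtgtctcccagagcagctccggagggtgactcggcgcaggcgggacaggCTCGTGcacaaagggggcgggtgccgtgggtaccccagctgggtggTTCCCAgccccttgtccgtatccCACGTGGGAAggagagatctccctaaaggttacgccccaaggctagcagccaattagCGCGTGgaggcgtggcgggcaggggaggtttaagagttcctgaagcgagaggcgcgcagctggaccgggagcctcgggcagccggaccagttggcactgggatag
Notch1: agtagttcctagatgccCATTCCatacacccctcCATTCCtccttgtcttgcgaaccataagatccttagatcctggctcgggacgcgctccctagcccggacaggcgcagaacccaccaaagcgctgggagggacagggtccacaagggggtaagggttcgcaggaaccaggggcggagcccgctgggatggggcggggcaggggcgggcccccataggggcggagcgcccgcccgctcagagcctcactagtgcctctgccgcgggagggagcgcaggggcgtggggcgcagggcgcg

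The Lfng window holds 2 RBPJ cores, which begin at positions -135 (on the opposite strand) and -108, where 0 is the annotated start. The second of them overlaps a CACGNG site that begins at -112, so that both are printed as one run of capitals. Lfng was the only member with an RBPJ core: it was found in 1 of the 11 windows of the 10 members (Dll1 has 2 windows, and 1 of them, like that of Jag2, lies inside the gene) and in 25.6% of the 32851 windows of the RefSeq table. In Notch1, both matches are TEAD cores, on the opposite strand at positions -233 and -216. Over the 11 windows, CACGNG was present in 8, the TEAD core in 3 (Notch1, Dll3 and Notch4), the AP-1 site in 2 (Dll1 and Notch4) and the TCF and LEF core in 1 (Jag1), and over all windows in 27.5%, 14.7%, 7.8% and 16.0%. The 8 windows with CACGNG include both of Dll1. These shares were not matched for base content, and CACGNG itself holds the letters CG. The member windows had 52.0 to 86.0% G and C and 5 to 63 CG pairs, against medians of 52.7% and 7 over all windows. A match describes these letters only.

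Notch1 was the main receptor RNA in every library and rose with MMK-1. The gene lies on chr2:26457903-26516663 of GRCm38, on the minus strand (GENCODE). Its level was 4.15, 4.08 and 3.998 FPKM in the controls and 7.18, 6.91 and 7.38 FPKM with MMK-1. The groups were far apart relative to their spread, with means of 4.08 ± 0.0751 and 7.16 ± 0.234 FPKM (SD, n = 3 each). The ratio was 1.76, and the log2 fold change on log2(FPKM + 1) was 0.68 (standard error 0.0474, limma adjusted p = 2.8e-06).

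Notch2, the second receptor of crypt progenitors (chr3:98013527-98150361, plus strand), was lower than Notch1 in every library and under the minimum of 1 FPKM. It had 0.551, 0.505 and 0.578 FPKM in controls and 0.933, 0.837 and 0.958 FPKM with MMK-1, from 199 to 227 and 316 to 374 fragments. The groups did not overlap and their means stood in a ratio of 1.67, close to that of Notch1. The limma-voom fit on fragments put its log2 fold change at 0.74 (adjusted p = 9.5e-05, standard error 0.109), and in the limma-trend fit over every gene above 0 it was 0.31 (adjusted p = 0.0016).

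Notch3 and Notch4 (both on chromosome 17, at 32120820-32166852 and 34564268-34588503), best known from vascular smooth muscle and from endothelium, were rare. The level of Notch3 was 0.0447, 0.0510 and 0.0224 FPKM in controls, from 7 to 16 fragments a library, and 0.185, 0.137 and 0.0773 FPKM with MMK-1, from 24 to 55 fragments. The groups did not overlap, but MMK-1 replicate 3 held the fewest of the treated libraries. The ratio of summed fragments per depth was 3.36 (exact 95% interval 2.30 to 4.99, counting error only). With limma-voom, the log2 fold change came to 1.70 (standard error 0.472, adjusted p = 0.0081), and 2.05 without MMK-1 replicate 3 (adjusted p = 1.7e-04).

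For Notch4, the controls held 58, 48 and 52 fragments and the MMK-1 libraries 50, 83 and 90. The first MMK-1 library lay within the control range, so the groups overlapped (exact two-sided permutation p = 0.2, where 3 against 3 libraries cannot go below 0.1). The 95% interval of its log2 fold change with limma-voom was -0.056 to 1.07 (adjusted p = 0.11), which includes both no difference and a doubling. Without MMK-1 replicate 3 the log2 fold change was 0.36 (limma-voom adjusted p = 0.26).

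Markers of the vascular cells from which Notch3 and Notch4 are best known were low. Of 7 endothelial markers listed, 6 had a mean under 1 FPKM, and Kdr and Robo4 were listed at 0 in all libraries. The endothelial sum was 0.555 to 1.26 FPKM in controls and 1.36 to 2.13 FPKM with MMK-1, with Esam the highest at 0.667 and 1.49 FPKM. Of 13 markers of fibroblasts, pericytes and smooth muscle listed, 12 were under 1 FPKM, and their sum was 5.95 to 6.35 FPKM in controls and 3.67 to 5.27 FPKM with MMK-1, mostly from Vim. In the study's single-cell data of crypts, Notch pathway genes were found mainly in Paneth, tuft and enteroendocrine cells. The part of any of these cell types in the values of Notch3 and Notch4 was not tested.

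The summed receptor level was 4.98, 4.83 and 4.81 FPKM in controls and 8.51, 8.23 and 8.78 FPKM with MMK-1. Its make-up was similar in both groups: Notch1 was 83.7% ± 0.737 of receptor FPKM in controls and 84.1% ± 0.228 with MMK-1 (SD, n = 3 each), and Notch2 was 11.2% ± 0.793 and 10.7% ± 0.444, with overlapping groups for both. Notch3 was 0.807% ± 0.305 and 1.57% ± 0.652, also with overlap.

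Among the ligands, Jag2 differed most of those tested. Jag2 (chr12:112907819-112929776, minus strand) encodes a Jagged ligand and had 1.76, 1.75 and 1.59 FPKM in controls and 5.29, 5.10 and 5.9996 FPKM with MMK-1. Every MMK-1 library was above every control, and the means were 1.70 ± 0.0975 and 5.46 ± 0.474 FPKM (SD, n = 3 each), a ratio of 3.21. The log2 fold change was 1.26 (standard error 0.0663, limma adjusted p = 5.7e-07), and 1.20 without MMK-1 replicate 3, the library with the highest value.

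Jag1 (chr2:137081456-137116644, minus strand), the other Jagged ligand, differed much less. It had 1.83, 2.08 and 1.92 FPKM in controls and 2.51, 2.45 and 2.33 FPKM with MMK-1, and the groups did not overlap. The means were 1.94 ± 0.123 and 2.43 ± 0.0953 FPKM (SD, n = 3 each), a ratio of 1.25, with a log2 fold change of 0.22 (standard error 0.0581, limma adjusted p = 0.0076). This call depended on the scaling: with libraries scaled to the upper quartile of every gene above 0, the log2 fold change was 0.11 (limma adjusted p = 0.11), and with a trend on gene length removed it was 0.02 (limma adjusted p = 0.80).

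Dll1 (chr17:15367354-15376872, minus strand), a ligand of secretory progenitors, was the member with the highest FPKM in both groups. Its values were 7.90, 7.40 and 6.67 FPKM in controls and 8.28, 7.96 and 8.39 FPKM with MMK-1, so the lowest MMK-1 library lay just above the highest control. The log2 fold change was 0.15 (95% interval 0.0088 to 0.29, limma adjusted p = 0.054), close to the median of all genes. Dll1 was called under 3 of 18 alternatives, with an adjusted p of 0.048 in limma-voom and 0.023 in limma-trend without Control replicate 1. Without Control replicate 3 its log2 fold change was 0.09 (limma adjusted p = 0.20). With a trend on gene length removed it was 0.03 (limma adjusted p = 0.71).

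Dll4 (chr2:119325784-119335962, plus strand) had 2.41, 2.67 and 2.47 FPKM in controls and 3.01, 2.58 and 3.09 FPKM with MMK-1. MMK-1 replicate 2 lay within the control range, and the groups overlapped (exact two-sided permutation p = 0.2). Its log2 fold change was 0.15 (95% interval -0.0078 to 0.30, limma adjusted p = 0.079). Dll4 was called under 1 of 18 alternatives, without MMK-1 replicate 2, at 0.21 (limma adjusted p = 0.023). Without MMK-1 replicate 3 its log2 fold change was 0.11 (limma adjusted p = 0.17). With upper-quartile scaling over every gene above 0 it was 0.03 (limma adjusted p = 0.68). Dll4 shares 214 exonic bases with Gm14207 on the opposite strand, which had 176 to 218 fragments in controls and 111 to 140 with MMK-1. Notch1 shares 1068 exonic bases with 0610009E02Rik, which had 24 to 42 fragments a library, and 414 with Gm13568, Dll1 shares 867 with A930024N18Rik and Notch3 488 with Gm17276, all on the opposite strand, and the last 3 partners have no values here. Whether counting used strand is not stated, so reads in these stretches cannot be told apart. Notch2 shares 541 exonic bases with Gm42820 on its own strand, where strand would not separate them.

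Dll3 (chr7:28293553-28302238, minus strand), a divergent Delta-like protein of the neuroendocrine lineage that acts inside the cell, was nearly undetected in controls. The controls held 4, 1 and 1 of its fragments and the MMK-1 libraries 10, 19 and 23. All MMK-1 libraries were above all controls, at 0.130 to 0.286 FPKM against 0.0123 to 0.0494 FPKM. The ratio of summed fragments per depth was 8.97, with an exact 95% interval of 3.85 to 25.6 that covers counting error only. The log2 fold change with limma-voom was 3.02 (standard error 0.682, adjusted p = 0.0023), in a fit that Dll3 entered through its MMK-1 fragments. Without MMK-1 replicate 3 the log2 fold change was 2.80 (limma-voom adjusted p = 0.0018).

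Lfng (chr5:140607320-140615545, plus strand), the glycosyltransferase that modifies Notch receptors, had 2.40, 2.09 and 1.83 FPKM in controls and 5.86, 5.41 and 7.01 FPKM with MMK-1. The groups were well separated, with means of 2.10 ± 0.285 and 6.09 ± 0.827 FPKM (SD, n = 3 each) and a ratio of 2.90. The log2 fold change was 1.19 (standard error 0.0957, limma adjusted p = 6.9e-06) and 1.10 without MMK-1 replicate 3, which again held the highest value.

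With every gene above 0 in the limma-trend fit, 7 of 10 members were higher, the 4 above and Notch2, Notch3 and Dll3, against 28.1% of genes. With limma-voom on fragments 8 of 10 were higher, Dll1 in addition, against 39.1% of genes, where Dll3 passed the minimum of 10 fragments through its MMK-1 libraries. With upper-quartile scaling over the genes tested, the same 4 of 6 were higher, against 41.7%. The plot of fold changes sets both fits side by side.

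**Figure D2:**
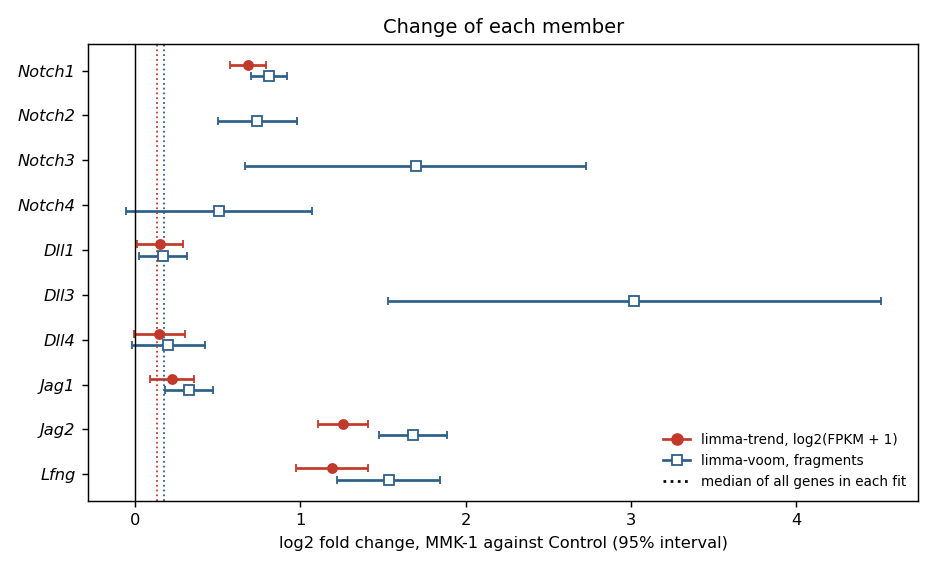
Log2 fold change of MMK-1 against Control with its 95% interval (horizontal axis) for each member, from limma-trend on log2(FPKM + 1) (red circles, 6 members) and from limma-voom on fragments (open blue squares, 10 members). Dotted lines mark the median of all genes in each fit, 0.13 and 0.17. Jag2, Lfng and Notch1 lie well to the right of it, whereas the intervals of Dll1 and Dll4 in both fits, and that of Jag1 in limma-trend, include it.

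The order of the levels changed accordingly. In controls the FPKM fell from Dll1 through Notch1, Dll4, Lfng, Jag1, Jag2, Notch2, Notch4 and Notch3 to Dll3, and only the neighbors Lfng and Jag1, and Notch3 and Dll3, had overlapping ranges. With MMK-1 the order was Dll1, Notch1, Lfng, Jag2, Dll4, Jag1, Notch2, Notch4, Dll3 and Notch3. Here the ranges of Notch1 and Lfng overlapped, as did those of Lfng and Jag2, Notch4 and Dll3, and Dll3 and Notch3. Jag2 thus stood above Dll4 in the MMK-1 libraries and below it in the controls. Lfng did so too, but with the longest GENCODE transcripts its control range, 1.81 to 2.37 FPKM, overlapped that of Dll4, 2.22 to 2.46 FPKM. Levels are per length, and the place of Jag1 depends on the length used: the FPKM of Jag1 imply a length of 11717 bases, whereas its longest GENCODE transcript has 5612. With that transcript its means would be 4.06 and 5.07 FPKM.

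Ratios within a library do not depend on scaling between libraries and are given as a description. The Jagged ligands made up 25.8, 27.5 and 27.7% of summed ligand FPKM in controls and 40.6, 41.2 and 41.4% with MMK-1. No library of one group reached the range of the other. The share of Jag2 was 12.6% ± 0.0351 and 28.4% ± 1.28, that of Dll1 was 54.2% ± 2.14 and 42.8% ± 0.866, and that of Dll4 was 18.6% ± 1.22 and 15.04% ± 0.847 (SD, n = 3 each). Jag2 stood to Jag1 as 0.879 in controls and 2.25 with MMK-1. Using the longest GENCODE transcripts, the Jagged share was 34.6% and 45.9% and the ratio of Jag2 to Jag1 was 0.424 and 1.09, and with fragments not divided by length they were 44.4% and 55.8%, and 0.386 and 0.991. The direction was the same in all 3, while the level depended on the length used, as did whether Jag2 exceeded Jag1 with MMK-1.

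Both sums were higher with MMK-1, but not by the same factor. Summed ligand FPKM were 14.0, 13.9 and 12.7 in controls and 19.2, 18.3 and 20.1 with MMK-1. Summed ligands stood to summed receptors as 2.77 ± 0.127 in controls and 2.26 ± 0.0308 with MMK-1 (SD, n = 3 each), without overlap. Within the ligands, the Delta-like sum was 9.86 ± 0.635 and 11.3 ± 0.499 FPKM, and the Jagged sum 3.65 ± 0.166 and 7.89 ± 0.394 FPKM.

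**Figure D3:**
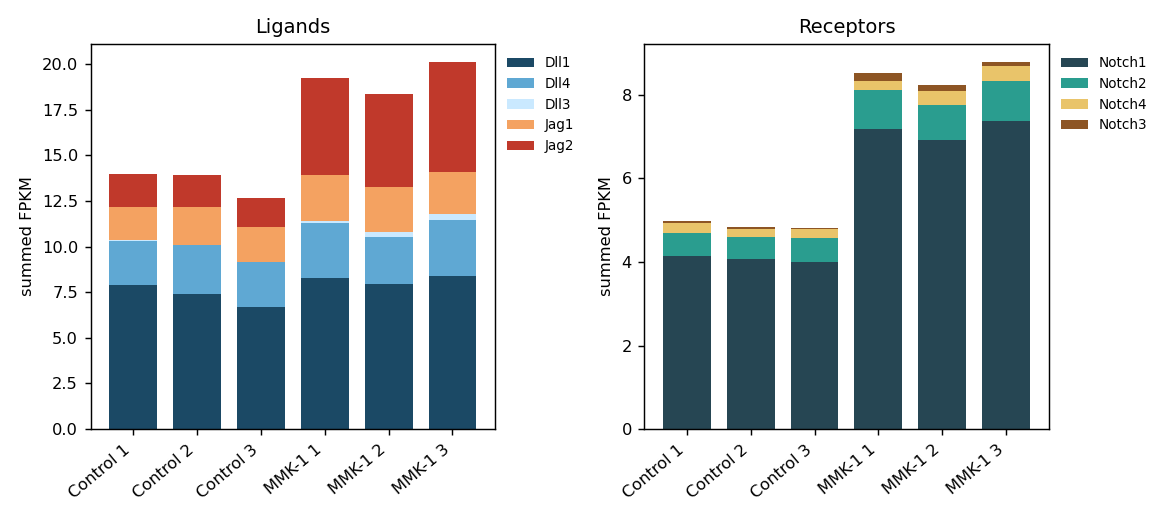
Summed FPKM of the 5 ligands (left) and the 4 receptors (right) in each library, with the part of each gene stacked; both axes start at 0. The Jag2 part grows from 12.6% to 28.4% of ligands, while Notch1 stays near 84% of receptors.

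The rest of the pathway moved in both directions. Of 49 other pathway genes in 6 lists, 47 were matched and 35 tested, and limma-trend called 18 higher and 7 lower (adjusted p up to 0.05), near the 48.5% and 24.7% of all genes tested. Rbpj and Egfl7, described further on, reached the test through their MMK-1 values alone, and without them 16 of 33 were higher and 7 lower. Their median log2 fold change was 0.16. With libraries scaled to the upper quartile of every gene above 0, 12 were higher and 11 lower, with a median of 0.06.

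Among the ubiquitin ligases and endocytic adaptors that act on ligands, 4 of 6 tested were higher and 2 lower, against 48.5% and 24.7% of all genes, and 2 were higher and 2 lower with upper-quartile scaling over every gene above 0. Mib1, which ubiquitinates Notch ligands in the signal-sending cell, had 7.11, 7.41 and 7.14 FPKM in controls and 15.7, 15.6 and 11.4 FPKM with MMK-1. MMK-1 replicate 3 lay well below the other treated libraries and above all controls, and the log2 fold change was 0.88 (standard error 0.106, limma adjusted p = 8.9e-05). Without that library it was 1.02 (limma adjusted p = 1.9e-07), past the 2-fold threshold. Neurl3, of the Neuralized family, fell by 0.61 on the log2 scale, and the endocytic adaptor Epn2 rose by 0.40. Of 3 tested O-glycosyltransferases that modify the receptor besides Lfng, Poglut1 rose by 0.29 on the log2 scale and 2 did not pass. The call of Poglut1 was lost with every gene above 0 and no MMK-1 replicate 3. Among 8 tested cleavage genes, 2 were higher and 3 lower (2 and 5 with the upper-quartile scaling over every gene above 0). The ADAM proteases Adam10 and Adam17 rose by 0.54 and 0.34 on the log2 scale, and Psen2, a catalytic subunit of γ-secretase, fell by 0.34.

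Of 11 tested genes of the nuclear complex, 7 were higher and none lower (0 at limma's adjusted threshold and at an unadjusted p of at most 0.05), against 48.5% and 24.7% of all genes. With libraries scaled to the upper quartile of every gene above 0, 5 were higher and 1 lower. The acetyltransferase Kat2a rose by 0.46 and the coactivator Maml1 by 0.33 on the log2 scale. Rbpj, the DNA-binding partner of the receptor fragment, had means of 0.949 ± 0.0781 FPKM for controls and 1.32 ± 0.0719 FPKM under MMK-1 (SD, n = 3 each), with a log2 fold change of 0.25 (limma adjusted p = 0.0056). Rbpj had 932 to 1101 fragments a library in controls and 1334 to 1432 with MMK-1, so these FPKM imply a long gene length. Its place near 1 FPKM depends on that length, as the place of Jag1 does. Rbpj was 1 of the 7 and entered the test through its MMK-1 values. Rbpj did not pass once a trend on GC content or on gene length was removed. Among 6 tested genes of turnover and inhibition, 3 were higher and 2 lower, against 48.5% and 24.7% of all genes, and 1 was higher and 2 lower with either upper-quartile scaling. Without such scaling, Dtx3l was lower by 0.70, and Dtx4 and Dtx2 were higher by 0.31 and 0.28 on the log2 scale. Dtx2 was not called under 7 of 18 alternatives, nor Dtx4 with a trend on gene length removed. Egfl7, a secreted protein that binds Notch receptors, had means of 0.922 ± 0.0307 FPKM for controls and 2.01 ± 0.111 FPKM under MMK-1 (SD, n = 3 each). It was the only tested gene of the other ligands, and it reached the minimum of 1 FPKM through its MMK-1 libraries, so its call is not read further.

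The direct targets and the factors of secretory fate were higher where tested. Both tested target genes rose: Hes1, the repressor of Atoh1, from 28.9 ± 0.476 to 45.5 ± 2.77 FPKM (log2 fold change 0.64, limma adjusted p = 6.4e-06), and Nrarp, a feedback inhibitor of the pathway, from 5.88 ± 0.49 to 10.3 ± 0.475 FPKM (log2 fold change 0.72, limma adjusted p = 1.1e-05, SD, n = 3 each). The other 4 listed targets were under the minimum level. All 6 tested secretory fate factors were also higher, against 48.5% of all genes. With every gene above 0 in the fit, 6 of the 8 listed factors were higher and 2 were not called, against 28.1% higher. Neurod1, Neurog3 and Insm1 are also among the 19 enteroendocrine markers, so the 2 results share genes. Sox4 rose by 1.58, Neurod1 by 0.86 and Neurog3 by 0.77 on the log2 scale. Neurod1 had 4.53, 4.31 and 2.90 FPKM with MMK-1, the last in replicate 3. Without that library, 2 of the 6 tested factors passed 2-fold instead of 1. Atoh1, which drives secretory fate and is repressed by Hes1, had 2.08, 2.84 and 2.02 FPKM in controls and 4.17, 2.81 and 3.80 FPKM with MMK-1. Its groups overlapped, and its log2 fold change came to 0.47 (standard error 0.128, limma adjusted p = 0.0094), a call that was lost when every gene above 0 entered the fit.

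**Figure D4:**
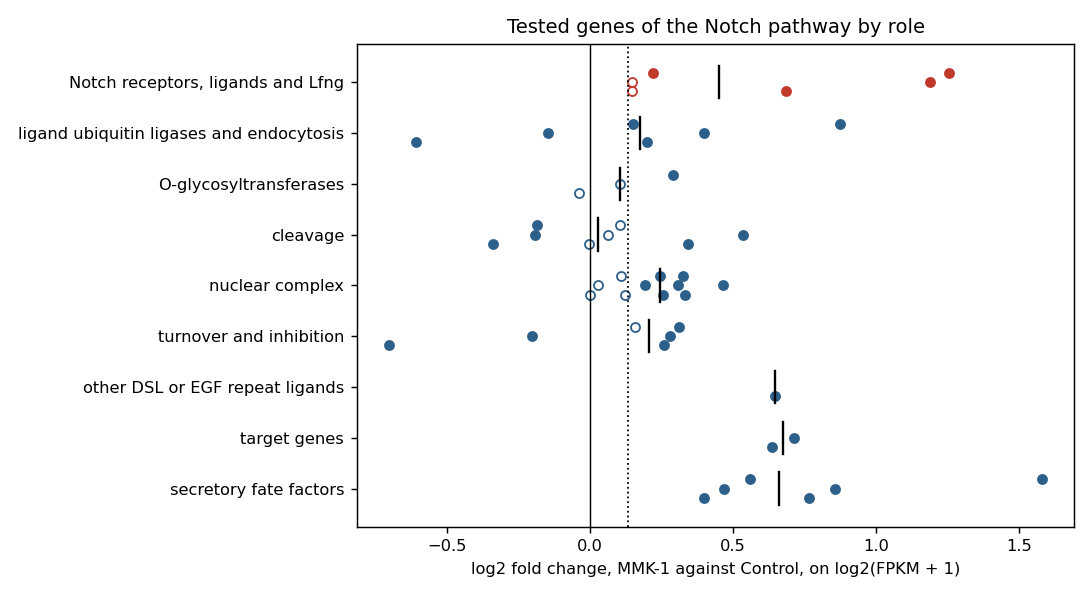
Log2 fold change on log2(FPKM + 1) (horizontal axis) of each tested gene, by role in the Notch pathway; filled points had a limma adjusted p of at most 0.05, open points did not, and short black lines mark the median of each list. The dotted line marks the median of all genes tested, 0.13. Jag2 and Lfng lie beyond 1, as does Sox4 among the secretory fate factors, and genes of ligand processing, cleavage and turnover lie on both sides of 0.

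The calls of Jag2, Lfng and Notch1 held under all 18 alternatives of scaling, filter, pseudocount, test, left-out library and trend. Their log2 fold changes ranged from 1.06 to 1.68, from 1.07 to 1.53 and from 0.42 to 0.81. Those of Jag1, Dll1 and Dll4 ranged from 0.02 to 0.36, from 0.01 to 0.20 and from 0.02 to 0.21, and their calls changed with the setting.

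**Figure D5:**
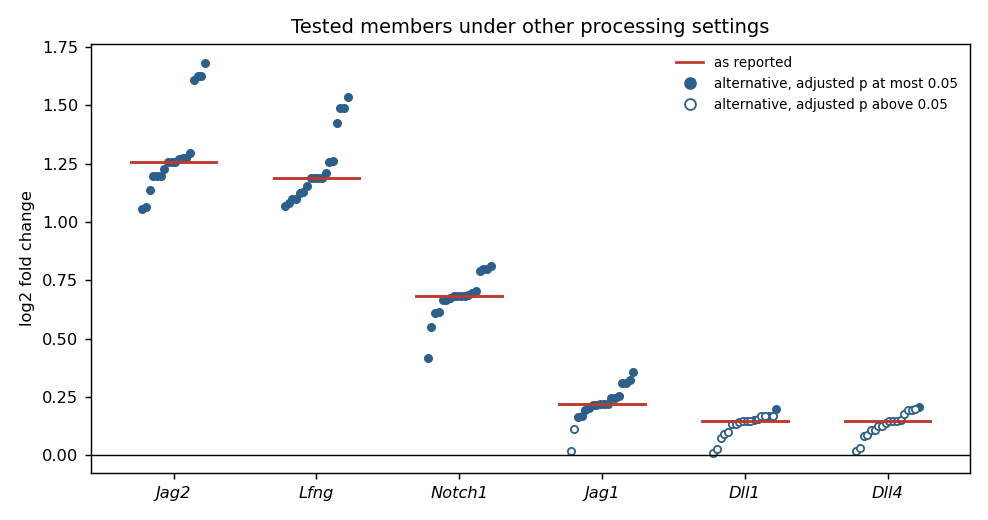
Log2 fold change (vertical axis) of the 6 tested members as reported (red line) and under 18 alternatives each (points, ordered by value; filled where the adjusted p was at most 0.05). Jag2, Lfng and Notch1 have filled points only and values of at least 0.42, whereas Jag1, Dll1 and Dll4 have open points near 0.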

How the data were processed

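RNA-seq libraries of 3 Control and 3 MMK-1 organoid samples were compared. The authors deposited FPKM values, that is, fragments divided by gene length and library total, and no further scaling between libraries is stated. The labels' processing notes name HISAT2, HTSeq, R 3.2.0, DESeq2 and mm10, without roles. FPKM were whole multiples of the step of 1 fragment, with a tolerance of 0.02, for 100.0% of 20676 genes above 0, which gave fragments per gene and library totals. Counting intervals cover counting error only.

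Differences were tested with limma 3.58.1 in R 4.3.3 (limma-trend) on log2(FPKM + 1), a pseudocount of 1, over the 10551 genes whose mean reached 1 FPKM, with Benjamini-Hochberg adjustment over all of them. Fold changes on this scale understate those of low genes. The alternative limma-voom fit used genes with at least 10 fragments in all. Members, gene lists and tests were chosen with earlier results of these data known. Named genes were all members and, from each other list, up to 3 genes past the adjusted threshold with the largest change, with Hes1, Atoh1 and Rbpj. One gene that this rule names is not reported here. Sums and shares were not tested. Fits and fragments were tested on simulated data. Coordinates are from GENCODE vM21 and promoters from RefSeq, both on GRCm38. Python 3.11.15 with pandas 2.3.3, scipy 1.17.1 and matplotlib 3.10.9 was used.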

Additional observations from a re-analysis of the deposited data

How the results depend on the processing

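The count of members higher at an adjusted p of at most 0.05, 4 of 6 as reported, depended on the filter and the scaling. Limma-voom changed test and filter together, so the part of the test alone is not known. The count was 3 of 6 with a trend on gene length removed (37% of all genes) and with upper-quartile scaling over every gene above 0 (34.8%). At a mean FPKM of at least 0.1 it was 6 of 9 (44%), or 5 of 8 without Dll3, which reached that minimum through its MMK-1 libraries. It was 7 of 10 with every gene above 0, also with a pseudocount of 0.1 and also without MMK-1 replicate 3, and 8 of 10 with limma-voom on fragments, with and without that library. In limma-trend, 2 of the 6 tested members passed at a fold change of 2 with an unadjusted p up to 0.05. In limma-voom, Notch3 and Dll3 passed these thresholds too, both on few fragments. Leaving out each library in turn gave 4 to 5. With the replicate block the count was 4, and it changed no call of a member. Samples with the same number in both groups deviated with correlations of 0.025, -0.040 and 0.028, so the numbers were not taken as pairs, and not every sample correlated best with its own number.

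The median of all genes tested was 0.13 on the log2 scale and -0.0036 with libraries scaled to the upper quartile of every gene above 0, where 3673 genes were higher and 3905 lower against 5118 and 2606 as reported. That scaling, the fits without MMK-1 replicate 3 other than the planned one, and the lengths of the longest GENCODE transcripts were chosen after seeing the data. No member was lower under any alternative, and no direction was reversed. Notch3 and Dll3 rest on few fragments, and over the fits that include them their log2 fold changes ranged from 0.12 to 2.05 and from 0.21 to 3.02.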
